A study of Mus musculus with 24 samples.

Results

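The glucocorticoid-responsive genes described here are 10 genes chosen by symbol, namely Fkbp5, Tsc22d3, Sgk1, Nr3c1, Ddit4, Zbtb16, Cdkn1a, Errfi1, Mt1 and Mt2, out of 53465 genes listed for the brain endothelium. All 10 passed the filter on low reads, which left 15493 genes for testing. They were chosen as genes that a hormone in the blood could reach in endothelial cells with or without a working clock of their own. Earlier results of these data were known at the choice, so comparisons of their counts with all genes are descriptions. RNA was sequenced from CD31-sorted brain endothelial cells of C57BL/6J mice. Control mice carried Bmal1fl/fl, a Bmal1 gene (listed as Arntl) flanked by sites for Cre recombinase, and mutant mice carried Bmal1fl/fl; Tie2cre. Tie2 drives Cre in endothelial cells of the whole body and also in blood-forming cells. All mice lived in a 12-h light and 12-h dark cycle with food at all times, and Zeitgeber time (ZT) 0 is lights on. For each genotype, 2 mice were taken every 4 h from ZT2 to ZT22 (6 time points), and each mouse gave 1 library (12 control and 12 mutant libraries). Neither the age nor the sex of each mouse is given in the labels.

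Glucocorticoids are steroid hormones of the adrenal gland whose blood level follows a daily cycle, which in nocturnal rodents is highest around the start of the dark phase. They cross the cell membrane and bind the glucocorticoid receptor, the product of Nr3c1, which is held ready by heat shock proteins and co-chaperones and then moves to the nucleus. There it binds DNA, often as a dimer on a palindromic response element, and raises genes such as Fkbp5, Tsc22d3, Sgk1, Ddit4 and Zbtb16. Brain endothelial cells carry the receptor and face the blood directly.

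Totals lay between 6136404 and 6648311 normalized reads per library. The summed reads of 8 endothelial markers ranged from 76747 to 117933 per library, against 45 to 770 for 6 neuronal markers. Markers of astrocytes (4717 to 21155), microglia (621 to 19170), oligodendrocytes (2210 to 18000) and mural cells (8700 to 22188) were also present, and no list had a marker at 0 in every library. In bulk samples, fewer cells of a type and less RNA per cell cannot be told apart. The 8 libraries of ZT6 and ZT18 stood apart from the other 16, with mitochondrial reads of 2.68 to 3.90% against 5.78 to 17.4%. Their microglial sums were 621 to 1184, against 6968 to 19170. Their sample numbers in the titles are consecutive, but the numbers of most other libraries continue them without a gap. The i5 index of the library barcode also followed the design, with the same index in both genotypes at ZT6, ZT14, ZT18 and ZT22 and different indexes at ZT2 and ZT10. Arntl reads ran from 1 at ZT10 to 468 at ZT22 in single controls and from 81 to 354 in mutants. Reads over the whole gene do not measure loss of the floxed part, so they do not check the label of a library.

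Promoter windows of 250 bases upstream of a start site are shown for 4 members, to set the rhythmic Fkbp5 beside Sgk1, which held a full glucocorticoid response element, and the neighbours Mt1 and Mt2, which are also known for their response to metal. They are RefSeq sequences of GRCm38.p6, given 5′ to 3′ on the gene's strand, and 8 of the 10 members could be examined. The glucocorticoid response element was searched as AGAACA and TGTTCT separated by any 3 bases, the E-box bound by BMAL1 as CACGTG, and the core of the metal response element as TGCACNC or TGCGCNC, on both strands. Capitals mark these matches. The Sgk1 window lies at chr10:21993640-21993889 on the plus strand, upstream of one of several Sgk1 start sites, and the Fkbp5 window lies at chr17:28486150-28486399 on the minus strand.
Sgk1: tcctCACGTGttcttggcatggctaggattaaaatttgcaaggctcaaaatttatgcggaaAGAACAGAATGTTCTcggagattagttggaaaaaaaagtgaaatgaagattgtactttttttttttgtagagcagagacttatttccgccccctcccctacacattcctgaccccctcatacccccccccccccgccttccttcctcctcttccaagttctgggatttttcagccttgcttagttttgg
Fkbp5: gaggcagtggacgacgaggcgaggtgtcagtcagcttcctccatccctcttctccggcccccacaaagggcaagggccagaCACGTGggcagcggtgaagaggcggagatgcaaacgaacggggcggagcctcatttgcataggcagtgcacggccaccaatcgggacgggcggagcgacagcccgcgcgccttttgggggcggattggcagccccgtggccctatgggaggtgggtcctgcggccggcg
Mt1 and Mt2 are neighbours on the plus strand of one chromosome, and their windows lie at chr8:94178839-94179088 and chr8:94172368-94172617. In these windows the capitals mark the metal response cores.
Mt1: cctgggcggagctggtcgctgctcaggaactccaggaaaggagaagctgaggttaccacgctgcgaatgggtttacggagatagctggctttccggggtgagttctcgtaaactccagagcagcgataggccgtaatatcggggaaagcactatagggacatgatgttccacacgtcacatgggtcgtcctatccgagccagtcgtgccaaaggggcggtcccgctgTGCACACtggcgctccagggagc
Mt2: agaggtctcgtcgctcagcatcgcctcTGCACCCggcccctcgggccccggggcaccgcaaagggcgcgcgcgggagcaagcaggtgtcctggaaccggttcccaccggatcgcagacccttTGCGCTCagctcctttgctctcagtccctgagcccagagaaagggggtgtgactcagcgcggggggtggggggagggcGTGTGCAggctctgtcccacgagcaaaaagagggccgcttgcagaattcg
The full glucocorticoid response element was found in 3 of 32851 promoter windows (0.00913%), and Sgk1 held 1 of them. The E-box was found in 6.02% of all windows, in the Fkbp5 window once and in the Sgk1 window once. The metal response core was in 21.4% of all windows, at 1 place in the Mt1 window, at 3 in the Mt2 window and at 1 in that of Ddit4. These matches describe letters in a short window and are not measured binding sites.

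The 10 genes were expressed at very different levels. In GENCODE on GRCm38, the protein-coding genes that the results below turn on lie at chr9:48654297-48836222 (Zbtb16, minus strand), chr17:28399094-28517527 (Fkbp5, minus strand), chrX:140539528-140600659 (Tsc22d3, minus strand) and chr17:29090976-29100727 (Cdkn1a, plus strand). Reads were counted over whole genes, so isoforms are not told apart. Per kilobase of exon, Tsc22d3, a leucine zipper protein known for anti-inflammatory actions of glucocorticoids, was the highest in controls (339 ± 125 reads per kb, SD, n = 12). Mt1, a metal-binding metallothionein (334 ± 75.6), Sgk1, a kinase that controls ion channels and transporters (283 ± 77.7), and Nr3c1, the receptor itself (281 ± 29.6), followed, and these neighbours did not differ beyond their spread. Ddit4, an inhibitor of mTOR signalling, had 183 ± 65.1 reads per kb, Cdkn1a, a cyclin-dependent kinase inhibitor, had 178 ± 126, Mt2 had 143 ± 62.6 and Zbtb16, a zinc finger transcription factor, had 120 ± 105. Errfi1, a feedback inhibitor of the epidermal growth factor receptor, had 63.8 ± 34.7. Fkbp5, the co-chaperone that lowers the receptor's affinity for hormone, was lowest with 19.2 ± 14.9 reads per kb. The coefficient of variation over the 12 control mice was 87.3% for Zbtb16 and 77.5% for Fkbp5, against 10.5% for Nr3c1.

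The main question was whether these genes kept a 24-h rhythm in endothelium without Bmal1. Of the 10 members, 3 had a rhythm shared by both genotypes (Zbtb16, Fkbp5 and Tsc22d3) at an adjusted p under 0.05, against 0.503% of all genes tested. The test was edgeR's quasi-likelihood F test of a 24-h cosine common to both genotypes, with Benjamini-Hochberg adjustment over 15493 genes. At an unadjusted p under 0.05 the members numbered 7, against 5.18% of all genes. The median fitted amplitude of the members, measured on the log2 scale from the mean to the peak, was 0.38, and that of all genes tested was 0.18. The fitted cosines of the 3 called members peaked close together, between ZT12.2 and ZT12.7, near lights off. Mice were taken every 4 h, and the highest mean of Tsc22d3 fell at ZT18 in both genotypes.

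Zbtb16 had the smallest p of all 15493 genes tested. In controls its normalized reads were 112 and 198 (ZT2), 244 and 361 (ZT6), 1352 and 1381 (ZT10), 1560 and 1166 (ZT14), 325 and 455 (ZT18) and 182 and 269 (ZT22). In mutants they were 70 and 63 (ZT2), 331 and 439 (ZT6), 959 and 533 (ZT10), 1122 and 1545 (ZT14), 163 and 375 (ZT18) and 317 and 73 (ZT22). In each genotype the 4 mice of ZT10 and ZT14 were above all others. The shared amplitude was 1.74 ± 0.16 on the log2 scale (SE), an 11.2-fold change from trough to peak, with a peak at ZT12.5 ± 0.36 h (adjusted p = 4.50e-06 by edgeR). Fitted apart, the amplitude was 1.72 ± 0.24 in controls and 1.77 ± 0.24 in mutants, and the peaks were at ZT12.6 and ZT12.5.

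**Figure D1:**
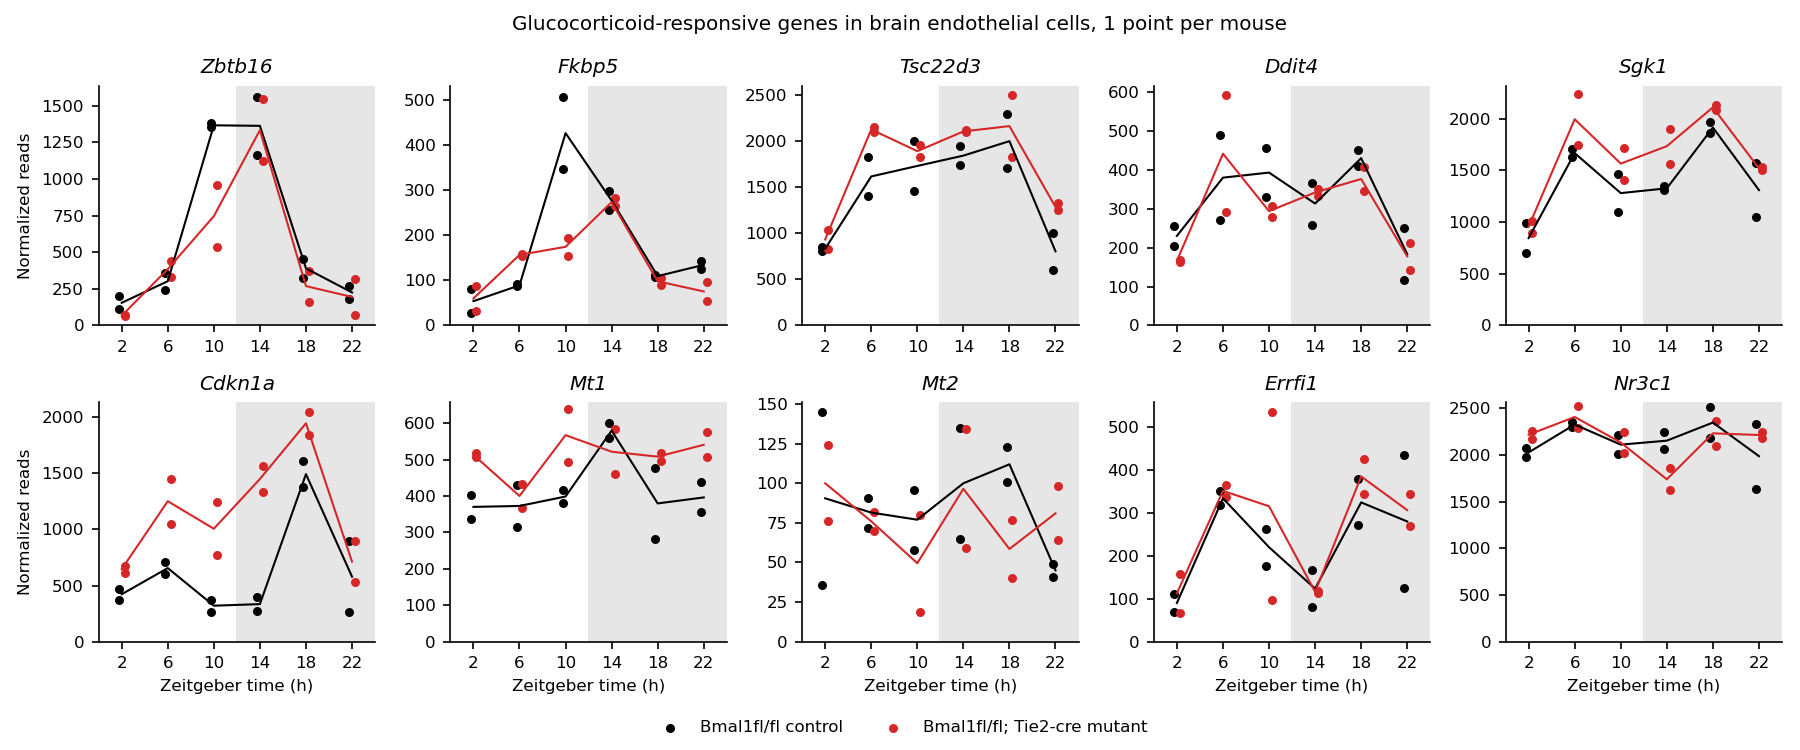
Normalized reads (vertical axis) of each of the 10 genes against Zeitgeber time in hours (horizontal axis), with 1 point per mouse, lines through the means of 2 mice, controls in black, mutants in red and the dark phase shaded. Zbtb16 was high at ZT10 and ZT14 in both genotypes, Fkbp5 at both times in controls and at ZT14 in mutants, Cdkn1a means were higher in mutants at 6 of 6 times, and Nr3c1 was nearly level.

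Fkbp5 had the next smallest p among the members. Its control reads were 81 and 27 (ZT2), 87 and 91 (ZT6), 507 and 346 (ZT10), 299 and 255 (ZT14), 112 and 107 (ZT18) and 126 and 143 (ZT22). Its mutant reads were 32 and 88 (ZT2), 154 and 159 (ZT6), 194 and 155 (ZT10), 264 and 283 (ZT14), 90 and 106 (ZT18), and 54 and 97 (ZT22). Both genotypes were lowest on average at ZT2 (54 and 60 reads), but the highest mean fell at ZT10 in controls (427) and at ZT14 in mutants (274). At ZT10 both mutants were below both controls, by a ratio of means of 0.409. The shared amplitude was 1.09 ± 0.17 (4.52-fold, peak ZT12.2 ± 0.58 h, adjusted p = 0.00150 by edgeR), with 1.21 ± 0.24 in controls and 1.01 ± 0.24 in mutants.

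Tsc22d3 rose more broadly. In controls its reads were 813 and 852 (ZT2), 1402 and 1833 (ZT6), 1462 and 2001 (ZT10), 1948 and 1739 (ZT14), 2296 and 1705 (ZT18) and 1008 and 603 (ZT22). In mutants they were 829 and 1038 (ZT2), 2152 and 2102 (ZT6), 1826 and 1958 (ZT10), 2117 and 2095 (ZT14), 1824 and 2504 (ZT18), and 1324 and 1248 (ZT22). The gene was low around dawn and higher from ZT6 to ZT18. Both ends of this span are the libraries of ZT6 and ZT18, with means of 1809 reads against 1303 at other times in controls and 2146 against 1554 in mutants. Its shared amplitude was 0.61 ± 0.10 (2.33-fold, peak ZT12.7 ± 0.62 h, adjusted p = 0.00818 by edgeR), with 0.71 ± 0.14 in controls and 0.51 ± 0.14 in mutants. Without the ZT6 and ZT18 libraries, the adjusted p of Zbtb16 was 5.71e-07, that of Fkbp5 was 4.85e-04 and that of Tsc22d3 was 2.75e-05. In the 16 libraries of the times at which both genotypes carried the same i5 index, Zbtb16 kept its call (adjusted p = 0.00419), while Fkbp5 (0.131) and Tsc22d3 (0.304) did not, in a fit that also lacked ZT2 and ZT10.

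Ddit4 was similar in shape to Tsc22d3 but was not called. In controls it had 256 and 204 reads (ZT2), 271 and 488 (ZT6), 330 and 455 (ZT10), 259 and 367 (ZT14), 409 and 450 (ZT18) and 250 and 116 (ZT22). In mutants it had 169 and 163 (ZT2), 291 and 591 (ZT6), 308 and 279 (ZT10), 350 and 333 (ZT14), 406 and 346 (ZT18), and 212 and 143 (ZT22). The amplitude was 0.50 ± 0.13 (2.01-fold, peak ZT11.8, p = 0.00728, n = 24, adjusted p = 0.478 by edgeR). Its reads at ZT6 and ZT18 averaged 405 against 280 at other times in controls and 409 against 245 in mutants. Without the ZT6 and ZT18 libraries its adjusted p was 0.0174.

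A direct view of the same pattern compares the 4 mice of ZT10 and ZT14, around lights off, with the 4 mice of ZT22 and ZT2, around lights on. Zbtb16, Fkbp5, Tsc22d3 and Ddit4 were higher around lights off without overlap in both genotypes, 4 of 10 members against 0.342% of all genes tested (1.83% in controls and 1.85% in mutants taken singly). The Zbtb16 means were 1365 and 190 reads in controls (7.17-fold) and 1040 and 131 in mutants (7.95-fold). The Fkbp5 ratio was 3.73 in controls and 3.31 in mutants, that of Tsc22d3 was 2.18 and 1.80, and that of Ddit4 was 1.71 and 1.85. Between the same mice, summed endothelial markers differed by 1.06-fold in controls and 1.07-fold in mutants, and the sums of 10 genes that respond to cell isolation (Fos, Jun, Egr1 and others) by 1.02-fold and 0.928-fold. Sums of other cell types differed more in places, with red blood cell markers 1.34-fold in controls and 1.07-fold in mutants, neuronal markers 0.745-fold and 0.986-fold, astrocyte markers 0.912-fold and 1.11-fold, microglial markers 0.906-fold and 1.08-fold and mural markers 1.02-fold and 0.974-fold. Oligodendrocyte sums averaged 10372 reads around lights off and 10709 around lights on in controls, and 9498 and 7973 in mutants. With the microglial sum as a covariate in the test of a shared rhythm, the adjusted p was 1.82e-07 for Zbtb16, 1.53e-04 for Fkbp5, 7.66e-07 for Tsc22d3 and 0.00424 for Ddit4 by edgeR, and the part of the other cell types' sums was not tested.

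**Figure D2:**
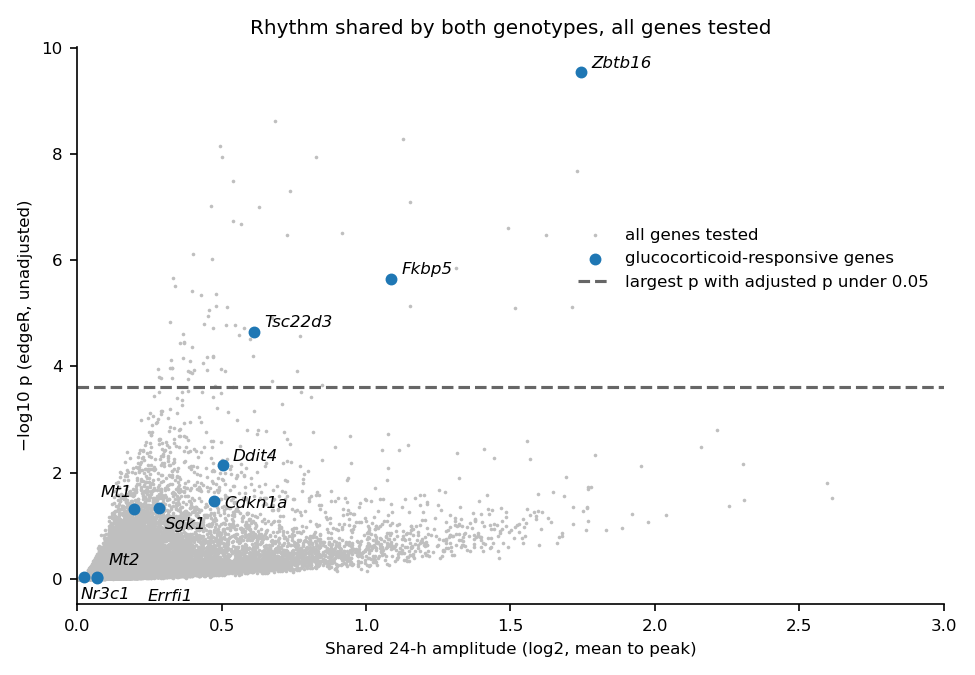
Amplitude of the 24-h cosine shared by both genotypes (horizontal axis, log2) against −log10 of its unadjusted p (vertical axis) for all 15493 genes tested in grey and the 10 members in blue, with a dashed line at the largest p that passed adjustment. Zbtb16 lies at the top, with Fkbp5 and Tsc22d3 also above the line.

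Sgk1, Cdkn1a and Mt1 passed only before adjustment. Sgk1 reads ranged from 704 to 1968 in controls (median 1404) and from 896 to 2238 in mutants (median 1642). On average, Sgk1 was lowest at ZT2 in both genotypes and highest at ZT18, and its amplitude was 0.28 ± 0.10 (p = 0.0472, n = 24, adjusted p = 0.953 by edgeR). In both genotypes its reads were higher in the libraries of ZT6 and ZT18 than at other times, with means of 1790 against 1190 in controls and 2051 against 1443 in mutants. Cdkn1a had an amplitude of 0.47 ± 0.19 and a late peak at ZT16.9 (p = 0.0350, n = 24, adjusted p = 0.866 by edgeR), and its highest mean was at ZT18 in both genotypes. Its control and mutant reads at ZT6 and ZT18 averaged 1074 and 1599, against 414 and 953 at other times. Mt1 had an amplitude of 0.20 ± 0.08 (p = 0.0492, n = 24, adjusted p = 0.960 by edgeR). Its control reads were highest at ZT14 (558 and 601), and its mutant reads stayed between 367 and 640.

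For the remaining members no shared 24-h rhythm was detected. Nr3c1 reads ranged from 1641 to 2518 in controls (median 2198) and from 1623 to 2523 in mutants (median 2215), with a shared amplitude of 0.02 ± 0.06. Both mutants at ZT14 (1857 and 1623) were below both controls (2242 and 2067), the lowest time of the mutants. Mt2 reads ranged from 36 to 145 in controls (median 81.5) and from 19 to 134 in mutants (median 76.5), and the most unlike pairs of mice were 145 and 36 in controls at ZT2 and 19 and 80 in mutants at ZT10 (amplitude 0.07 ± 0.19). Errfi1 reads ranged from 70 to 436 in controls (median 220) and from 67 to 535 in mutants (median 303.5), with an amplitude of 0.07 ± 0.24. Its means of 2 mice differed by 3.71-fold between the highest and lowest times in controls and by 3.42-fold in mutants, and most pairs of mice were closer than that, except those of mutants at ZT10 (535 and 96 reads) and, nearly as far apart, of controls at ZT22 (436 and 124). Errfi1 reads were higher at ZT6 and ZT18 than at other times, with means of 329 against 178 in controls and 368 against 213 in mutants. Over the 24 libraries Errfi1 followed the isolation-response sum with a Pearson r of 0.89, a description that includes shared differences between libraries. The same r was 0.77 for Sgk1, 0.55 for Cdkn1a, 0.54 for Nr3c1, 0.45 for Tsc22d3, 0.35 for Ddit4, 0.03 for Fkbp5, -0.03 for Zbtb16, -0.09 for Mt2 and -0.12 for Mt1. Errfi1 had an r of -0.81 with the neuronal sum and -0.78 with the oligodendrocyte sum, and Tsc22d3 and Ddit4 each had 0.68 with the endothelial sum (0.58 without ZT6 and ZT18). With the isolation-response sum as a covariate, the adjusted p of the shared rhythm was 6.80e-06 for Zbtb16 by edgeR. It was 0.00169 for Fkbp5 and 9.92e-04 for Tsc22d3, and Ddit4 was not called. The endothelial sum was not used as a covariate.

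Rhythms were also tested within each genotype by meta2d, a combination of the JTK_CYCLE and Lomb-Scargle tests. In controls 1 of 10 members passed an unadjusted p under 0.05 (Zbtb16, p = 8.26e-04, n = 12), against 2.43% of all genes tested. In mutants 2 of 10 passed (Zbtb16, p = 6.73e-04, and Fkbp5, p = 0.00499, n = 12), against 2.27%. Zbtb16 was therefore called in both genotypes, as were 0.194% of all genes. Fkbp5 had a p of 0.0912 in controls, and Tsc22d3 had 0.0881 in controls and 0.155 in mutants. At the study's threshold, a q under 0.6, Zbtb16 passed in controls (q = 0.481), where 0.31% of genes did, and no member passed in mutants (Zbtb16, q = 0.721), where 0.0387% did. These p-values rest on 12 libraries each, and the edgeR cosine within a genotype put 3 members under an unadjusted p of 0.05 in controls (Zbtb16, Fkbp5 and Tsc22d3), against 4.43% of all genes tested, and 4 in mutants (these and Cdkn1a), against 4.16%.

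**Figure D3:**
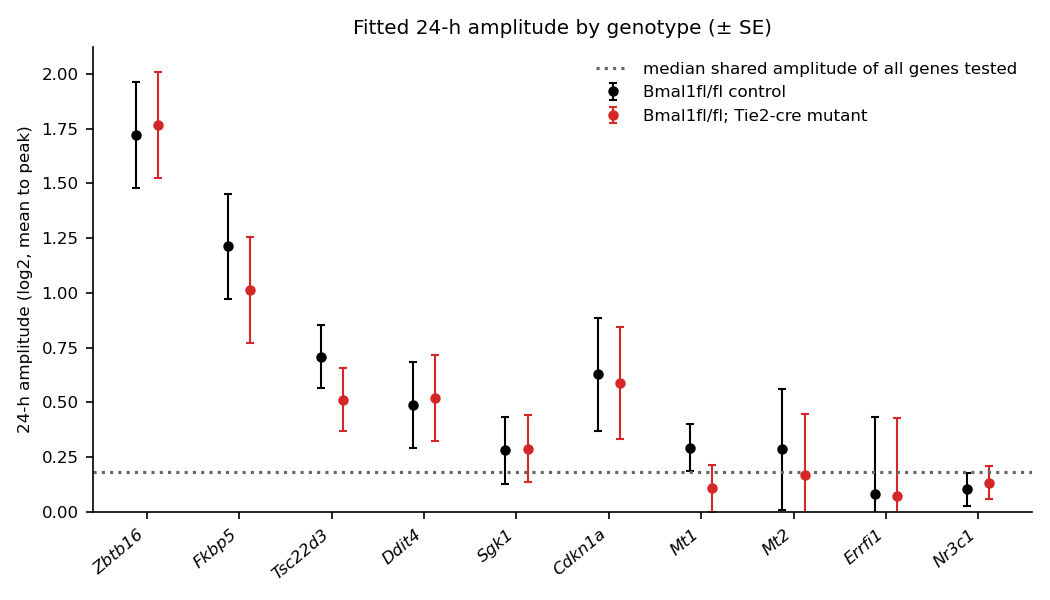
Fitted 24-h amplitude (vertical axis, log2) of each member in controls (black) and mutants (red), with bars of 1 SE cut at 0 and a dotted line at the median shared amplitude of all genes tested. Amplitudes of Zbtb16 were 1.72 and 1.77, and the bars of the genotypes overlapped for every member.

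The difference between genotypes was tested directly as an interaction of genotype with the 24-h cosine. No member passed, with 0 of 10 at an adjusted p and 0 of 10 at an unadjusted p under 0.05 by edgeR, where 0% and 4.26% of all genes did. DESeq2 also called 0 members and 1 gene in all. The unadjusted p was 0.985 for Zbtb16, 0.5998 for Fkbp5, 0.658 for Tsc22d3 and 0.969 for Ddit4, and the smallest were 0.123 for Nr3c1 and 0.165 for Cdkn1a. Missing the threshold does not show that the rhythms were equal, and each amplitude of a single genotype carries an SE of 0.24 for Zbtb16 and for Fkbp5. Cdkn1a peaked at ZT19.8 ± 1.57 h in controls and at ZT14.2 ± 1.66 h in mutants by separate fits.

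Mean level over the day was the other comparison between genotypes. Cdkn1a was higher in mutants, the 1 of 10 members called, against 0.271% of all genes tested (0.155% called as higher). Its control reads were 371 and 473 (ZT2), 601 and 710 (ZT6), 373 and 267 (ZT10), 396 and 272 (ZT14), 1377 and 1609 (ZT18) and 897 and 260 (ZT22). Its mutant reads were 614 and 677 (ZT2), 1050 and 1453 (ZT6), 1242 and 770 (ZT10), 1337 and 1562 (ZT14), 1846 and 2046 (ZT18) and 895 and 530 (ZT22). The mutant mean was higher at 6 of 6 times, and at 5 of these both mutants were above both controls. The ratio of means ran from 1.23 at ZT22 to 4.34 at ZT14. The ZT14 controls held the highest mitochondrial shares of all libraries (17.4 and 15.3%), against 7.89 and 10.7% in the ZT14 mutants. The sample numbers of these mutants also lie in a separate, lower range. The log2 fold change was 0.99 ± 0.18 (SE, adjusted p = 0.00447, edgeR with time point as a factor). At the 4 times with the same i5 index in both genotypes it was 0.90 (adjusted p = 0.169), and with the index as a covariate it was 0.90 (adjusted p = 0.146), so the size stayed while the call was lost. Without the ZT6 and ZT18 libraries it was 1.15 (adjusted p = 0.0469), and with the isolation-response sum as a covariate, whose median was 45814 reads in controls and 55073 in mutants, it was 0.84 (adjusted p = 0.0351, all by edgeR). Trp53, Mdm2 and Ccng1, which belong to the p53 pathway that Cdkn1a serves, were not called in the same test, with log2 fold changes of 0.26, 0.10 and 0.05.

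**Figure D4:**
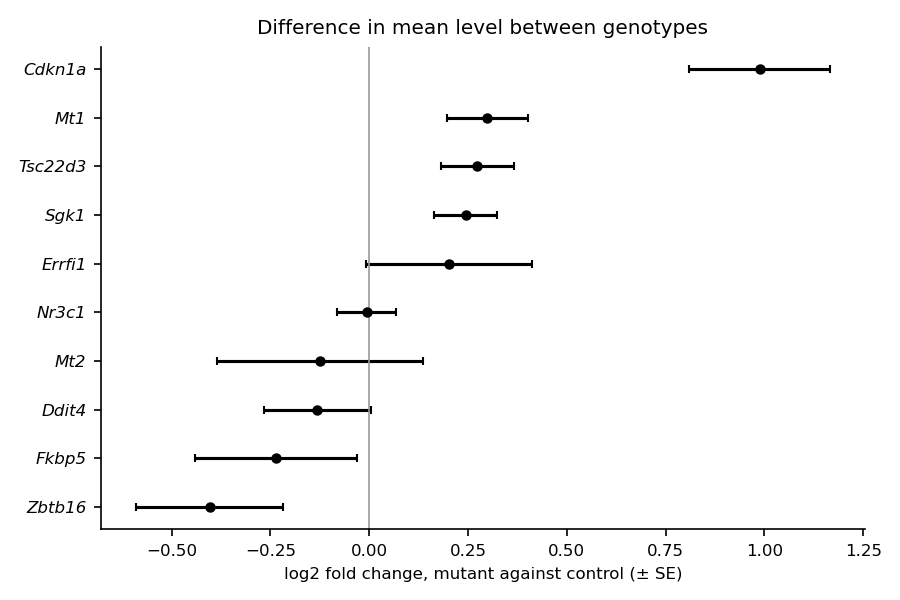
Log2 fold change in mean level of mutants against controls (horizontal axis, bars of 1 SE) for the 10 members, adjusted for time point. Cdkn1a lies at 0.99, and the other members lie between -0.40 and 0.30.

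At an unadjusted p under 0.05, 5 of 10 members differed in level, against 6.95% of all genes tested (3.78% higher and 3.18% lower in mutants). Those higher in mutants besides Cdkn1a were Sgk1 (0.24 ± 0.08, p = 0.00444), Tsc22d3 (0.27 ± 0.09, p = 0.00534) and Mt1 (0.30 ± 0.10, p = 0.00651), and Zbtb16 was lower (-0.40 ± 0.19, p = 0.0384), all by edgeR over n = 24 libraries and with adjusted p-values between 0.350 and 0.671. At the 4 times with the same i5 index in both genotypes the difference was -0.12 for Zbtb16 and 0.19 for Mt1, and with the isolation-response sum as a covariate it was 0.13 for Sgk1. Mutant means of Sgk1 and of Tsc22d3 were higher at 6 of 6 times, and both mutants were above both controls at 3 of them. Mt1 was higher at 5 of 6 times, with controls between 283 and 601 reads (median 409) and mutants between 367 and 640 (median 507). The log2 fold changes of Errfi1 (0.20 ± 0.21), Nr3c1 (-0.01 ± 0.07), Mt2 (-0.12 ± 0.26), Ddit4 (-0.13 ± 0.14) and Fkbp5 (-0.24 ± 0.21) were within about 1 SE of 0, and that of Fkbp5 ran from -0.54 to -0.06 over the alternatives other than leaving out single libraries. The median log2 fold change was 0.10 over the members and 0.00 over all genes tested.

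Genes of the same pathway were taken from 3 lists. Like the members, these lists were chosen with earlier results of these data known, so their counts beside all genes are descriptions. Of 32 other known targets, 4 had a shared rhythm, against 0.503% of all genes tested. Sult1a1, a sulfotransferase, had an amplitude of 1.13 (4.77-fold, peak ZT13.2, adjusted p = 2.68e-05 by edgeR). Map3k6, a stress-responsive kinase, had 1.62 (9.51-fold, peak ZT13.3, adjusted p = 2.92e-04 by edgeR), with 537 and 503 reads in controls and 816 and 764 in mutants at ZT14, against 84 and 18, and 21 and 19, at ZT2. Fam107a, an actin-associated stress gene, had 0.55 (peak ZT13.0, adjusted p = 0.00665 by edgeR). Per1, a clock gene that also responds directly to glucocorticoids, had 0.76 (2.87-fold, peak ZT12.0, adjusted p = 0.0285 by edgeR), with 376 and 437 reads in controls and 381 and 453 in mutants at ZT2, and 1632 and 1211 in controls and 1331 and 1143 in mutants at ZT10. The highest Per1 mean was at ZT10 in controls, but at ZT18 in mutants (1270 and 1699 reads). These 4 fitted peaks were within about 1 h of those of Zbtb16, Fkbp5 and Tsc22d3. Of all 78 genes with a shared rhythm, however, 69 had a fitted peak between ZT10 and ZT15 (88.5%). A fitted peak near lights off was therefore common among rhythmic genes. The median amplitude of the target list was 0.28, against 0.18 for all genes.

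**Figure D5:**
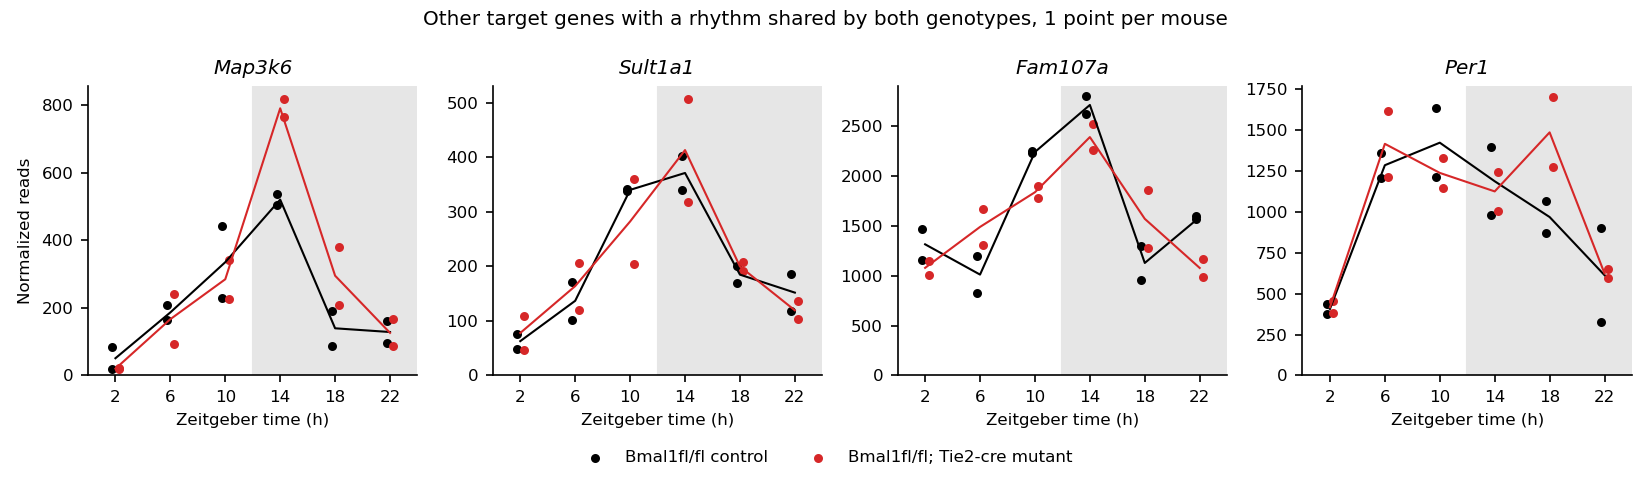
Normalized reads (vertical axis) of the 4 other target genes with a shared rhythm against Zeitgeber time in hours (horizontal axis), with 1 point per mouse, lines through the means of 2 mice, controls in black, mutants in red and the dark phase shaded. Map3k6 and Sult1a1 were lowest at ZT2 and highest at ZT14 in both genotypes.

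By meta2d, 4 of these 32 targets passed in controls (Map3k6, Sult1a1, Pdk4 and Per1), against 2.43% of all genes tested, and 4 in mutants (Fam107a, Map3k6, Sult1a1 and Foxo3), against 2.27%. None of the 32 was called for level, and 5 were higher in mutants at an unadjusted p under 0.05 (3.78% of all genes tested were), namely Rhob (0.30), Dusp1 (0.36), Irs2 (0.55), Zfp36 (0.28) and Foxo3 (0.17 on the log2 scale). The isolation-response sum was also higher in mutants by its median (55073 against 45814 reads), and its part in these differences was not tested.

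Of 16 listed genes of the receptor's own machinery (the mineralocorticoid receptor Nr3c2, steroid-converting enzymes, chaperones and coregulators) 15 could be tested, and 0 had a shared rhythm at an adjusted p by edgeR, with 4 (26.7%) at an unadjusted p under 0.05, against 5.18% of all genes. These, over n = 24 libraries, were Hsp90aa1 (amplitude 0.37, peak ZT17.9, p = 0.00202), Hsp90ab1 (0.25, ZT17.3, p = 0.00859), Stip1 (0.31, ZT15.0, p = 0.0125) and Fkbp4 (0.24, ZT17.2, p = 0.0148), all chaperones of the receptor complex, with fitted peaks later than those of the called members. Ncoa1 and Hsp90aa1 passed meta2d in controls (p = 0.0145 and 0.0469, n = 12), 2 of 15 against 2.43% of all genes, and none passed in mutants. None differed in level, and the smallest p were those of Nr3c2 (-0.21, p = 0.108) and Ncoa3 (0.15, p = 0.113, n = 24).

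Relatives and partners of the members gave 21 tested genes of 22. None had a shared rhythm at an adjusted p by edgeR, and Cdkn1b, a relative of Cdkn1a, had the smallest unadjusted p (amplitude 0.28, p = 9.97e-04, n = 24). None was called for level. At an unadjusted p under 0.05, 3 of the 21 differed in level, against 6.95% of all genes tested. These were relatives of Tsc22d3, with Tsc22d1 lower in mutants (-0.30, p = 6.75e-04) and Tsc22d2 and Tsc22d4 higher (0.28, p = 0.00967, and 0.27, p = 0.0419, n = 24).

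Across the 24 libraries the genes whose log2 values followed Zbtb16 most closely were Ttll7 (Pearson r of 0.91), Ccdc85a (0.91), Gatm (0.90), Tbc1d4 (0.89) and Pnpla2 (0.87). They were picked for likeness to a rhythmic gene over the same libraries, so a peak near that of Zbtb16 was fixed by the choice, and the fitted peaks lay between ZT11.6 and ZT13.2. Their trough-to-peak changes were 1.74-fold to 3.15-fold, smaller than the 11.2-fold of Zbtb16. Among the members the highest correlations were between Fkbp5 and Zbtb16 (0.82), Tsc22d3 and Sgk1 (0.79) and Tsc22d3 and Ddit4 (0.78). The points of these correlations share libraries, time points and the split between ZT6 and ZT18 and the other times.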

How the data were processed

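RNA-seq of CD31-sorted brain endothelium from 24 mice was analysed. The authors sorted cells from digested brains, sequenced strand-specific libraries, aligned reads to GRCm38 with STAR 2.5.3a (SAMtools 1.3.1 is also named in the submitters' processing notes) and normalized gene counts with PORT. The deposited counts are whole numbers with similar totals, the original depth is not in them, and precision was judged from these normalized reads. Whether counting used strand is not given in the sources used here. Fkbp5, Cdkn1a, Errfi1 and Mt2 overlap other genes.

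Groups came from the sample titles. A gene was tested where 6 or more libraries of a genotype held at least 5 reads, as in the study. Shared rhythm (genotype plus a 24-h cosine and sine), rhythm difference (interaction) and level (time point as a factor) were tested with edgeR 4.0.16 (TMM, quasi-likelihood F test) in R 4.3.3, and p-values were adjusted by Benjamini-Hochberg over all genes. Meta2d was rewritten in R with the study's settings. SEs of amplitudes and peaks come from the fitted coefficients. P-values of the edgeR tests rest on the spread of mice, 2 per group, around the fitted model. In the rhythm tests this spread includes departures of time-point means from a cosine. In the level test it includes genotype differences that vary with time. Those of meta2d come from the JTK_CYCLE and Lomb-Scargle statistics over the libraries of a single genotype. The scripts were tested on simulated data. Figures used matplotlib 3.10.9 in Python 3.11.15. Gene positions and exon lengths came from GENCODE on GRCm38 and promoters from RefSeq, GRCm38.p6.

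All 10 members were included in every test, but not each of them is named for every test. From each of 3 gene lists, genes past the threshold are named up to 6, or those with the smallest p where none passed, together with the 5 genes most like the member with the smallest p. Marker lists covered endothelial, astrocyte, microglial, oligodendrocyte, mural, neuronal, red blood cell and isolation-response genes. The members and lists were chosen with earlier results of these data known. Alternatives were no TMM, DESeq2 1.42.0, no filter, a replicate block, the i5 index, a term for ZT6 and ZT18, leaving out those times or each library, and, within a genotype, an edgeR cosine, values rescaled by TMM, at least 10 reads in every library and the study's q. Added after the data were seen were isolation-response and microglial sums as covariates, the times with 1 i5 index, and the edgeR cosine within a genotype without ZT6 and ZT18.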

Additional observations from a re-analysis of the deposited data

Results flagged for a closer look

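No member passed the test for a difference in rhythm between genotypes. Among the 78 tested genes of the members and the 3 lists, 3 (3.85%) had an unadjusted p under 0.05 in edgeR's test of a different 24-h rhythm, a share below the 4.26% of all genes tested, and none passed adjustment (adjusted p = 1.00 for each). For Ncoa1, a receptor coactivator, p was 0.0174, with the highest control reads at ZT14 (1284 and 1204) and the highest mutant reads at ZT6 (1310 and 1158). For Lcn2, a secreted lipid-binding protein, p was 0.0281, and 1 control at ZT10 held 284 reads while the other libraries held 0 to 48. For Hsp90aa1, a chaperone of the receptor, p was 0.0393, with control reads from 2283 at ZT2 to 6167 at ZT14 and mutant reads from 2845 at ZT14 to 6021 at ZT18.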

How the results depend on the processing

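The call of Zbtb16 as rhythmic in both genotypes together was the same in all alternatives run. The shared rhythm, at 78 genes, numbered 122 with DESeq2, 231 with no filter on low reads (5 members, with Ddit4 and Cdkn1a added), 128 with microglial markers as a covariate and 46 (1 member) at the times with 1 i5 index in both genotypes. Ddit4, not called in the main test, was also called without ZT6 and ZT18, with a term for them, with the i5 index and with microglial markers. Differences in rhythm numbered 1 with DESeq2, 52 (1 member, Cdkn1a) with no filter, 1 with the i5 index, 5 without ZT6 and ZT18 and 1 with a term for ZT6 and ZT18. Differences in level, at 42, numbered 99 with DESeq2, 141 (2 members, with Zbtb16 added) with no filter, 7 (0 members) with the i5 index and 10 (0 members) at the times with 1 i5 index. Of 377 rhythmic genes in controls by meta2d (1 member), 48 passed q under 0.6, the edgeR cosine called 686 (3 members), and 886 (6 members) without ZT6 and ZT18, and values rescaled by TMM gave 2 members. Of 351 in mutants (2 members), 6 passed q under 0.6 (0 members), and the edgeR cosine called 645 (4 members) and 903 (6 members) without ZT6 and ZT18. Samples of the same replicate number did not deviate together (r of -0.08 to 0.19 over 66 pairs of groups, 2 above 0.1). Replicate numbers follow the order of the sample titles, and the labels do not give the experiment of each mouse. The check therefore cannot show whether mice were paired or grouped by experiment. With a replicate block the edgeR cosine called 630 genes in controls (3 members) and 590 in mutants (4 members), and the block changed no other call of a member in the tests over both genotypes. The causes of these shifts were not tested.

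Leaving out each library in turn gave 52 to 90 genes with a shared rhythm (3 members throughout), 0 to 1 with a different rhythm (0 members), 25 to 68 with a different level (1 member throughout; both extremes came from leaving out a ZT6 mutant), 314 to 530 rhythmic in controls (1 to 2 members) and 302 to 469 in mutants (2 to 3 members). Small differences in level changed sign. Nr3c1 was at 0.00292 with no TMM, 0.00527 with microglial markers and between -0.0431 and 0.0263 without single libraries. Ddit4 was at 0.0119 with the i5 index and at 0.0120 at the times with 1 index, Mt2 at 0.0543 without ZT6 and ZT18, and Errfi1 at -0.219 with the isolation-response sum and between -0.00103 and 0.332 without single libraries. Original depth is unknown, so the counting error of low genes such as Mt2 and Fkbp5 cannot be given, and each group holds 2 mice.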
